A study of Saccharomyces cerevisiae with 6 samples.

Results

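Sulfur enters budding yeast as sulfate and leaves the pathway as methionine, cysteine and S-adenosylmethionine (SAM), and 34 genes of this route were followed here across 3 groups of poly(A) RNA libraries. The members were taken by gene name from 6400 named entries of a table of TPM values, and all 34 were present. They comprise 28 enzymes and transporters and the 6 regulators MET4, MET28, MET31, MET32, CBF1 and MET30. TPM is a relative abundance corrected for gene length, and it sums to 1000000 in every library. The groups are T1, T2 and T3, with replicates A and B in each, all from the laboratory strain W303 of Saccharomyces cerevisiae. Every library carries the word arrest in its title, and the series' design speaks of cultures of 3 mean sizes. Neither a size, a time, an age, a genotype beyond the strain nor the means of arrest is given for any group, so the groups are compared by name. Whether the 2 replicates of a group are separate cultures is not stated, so p-values may measure technical spread alone.

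As background, yeast takes up sulfate through permeases, activates it to adenylyl sulfate and then PAPS, and reduces it to sulfite and sulfide. Sulfide is joined to O-acetylhomoserine to give homocysteine, which is methylated to methionine or diverted to cysteine through transsulfuration. Methionine is the substrate of SAM synthetase, SAM gives up its methyl group in many reactions, and the S-adenosylhomocysteine left behind is split back to homocysteine. The genes of this route are classic targets of the activator Met4, which does not bind DNA well on its own and is brought to promoters by Cbf1 and by Met31 and Met32, with Met28 as a stabilising partner. When sulfur is ample, the F-box protein Met30 directs the ubiquitination of Met4 and holds it inactive.

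Every member was covered in every library. Fragments recovered from TPM and annotated coding length came to between 17874379 and 23537652 per library on matched genes, and a member held 316 to 47805 fragments in a library. The 6046 genes that averaged 1 TPM or more over the libraries were tested, all 34 members included. Alpha-cell genes used as a check of mating type summed to 1975 to 3899 TPM and a-cell genes to 24.2 to 32.1 TPM across the libraries, so the cultures read as alpha cells. The alpha-cell sum differed by group, with means of 3874 TPM in T1, 2946 TPM in T2 and 2007 TPM in T3. TPM compare shares of a bulk culture, in which fewer cells with a transcript and less of it per cell cannot be told apart.

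The DNA upstream of the members was read first, because the regulators act there. In the 500 bases before the annotated start codon, 21 of 34 members (61.8%) held CACGTG, the core bound by Cbf1, against 374 of 6000 nuclear protein-coding genes (6.23%). The hexamer TGTGGC, or GCCACA as it reads on the other strand, is part of the site of Met31 and Met32, and it occurred in 22 members (64.7%) and in 854 of all 6000 genes (14.2%). Both hexamers were present upstream of 14 members (41.2%) and 69 genes in all (1.15%), and 5 members (SUL1, STR2, SAM1, SAM4 and MET31) had neither. In no member did matches of the 2 hexamers overlap each other, and a window can reach into a neighbouring gene. The following stretches of the R64 genome are given 5′ to 3′ on the strand of the gene, with matches to either hexamer in capitals. They were chosen to show the arrangement in genes that rose and in genes that fell between T1 and T3.
MET28, chrIX:384321-384416, minus strand: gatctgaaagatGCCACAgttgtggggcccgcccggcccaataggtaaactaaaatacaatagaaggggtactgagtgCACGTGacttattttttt
MET16, chrXVI:877772-877822, minus strand: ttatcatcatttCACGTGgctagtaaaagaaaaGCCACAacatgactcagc
MET10, chrVI:213051-213124, plus strand: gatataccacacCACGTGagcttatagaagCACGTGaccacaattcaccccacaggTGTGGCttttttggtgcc
MET14, chrXI:439560-439625, minus strand: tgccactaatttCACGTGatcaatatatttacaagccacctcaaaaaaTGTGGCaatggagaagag
SAM2, chrIV:1454743-1454799, minus strand: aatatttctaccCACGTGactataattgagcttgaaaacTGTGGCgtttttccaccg
SAH1, chrV:237343-237372, minus strand: gatatttctgtgCACGTGatctcgttggct
MMP1, chrXII:17747-17800, plus strand: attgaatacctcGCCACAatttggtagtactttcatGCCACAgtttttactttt

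The first base of CACGTG lies 219 bases before the start codon in MET28, 178 in MET16, 249 and 231 in MET10, 228 in MET14, 323 in SAM2 and 241 in SAH1. In MET10, MET14 and SAM2 the Met31 and Met32 hexamer lies downstream of CACGTG on the gene's own strand, in MET16 it lies downstream on the other strand, and in MET28 it lies upstream on the other strand. MMP1 and MHT1 are divergent neighbours on chromosome XII with 342 bases between them, so the 2 matches in the MMP1 stretch are also the 2 matches upstream of MHT1. A match is a description of letters and not evidence of binding in these cells.

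**Figure D1:**
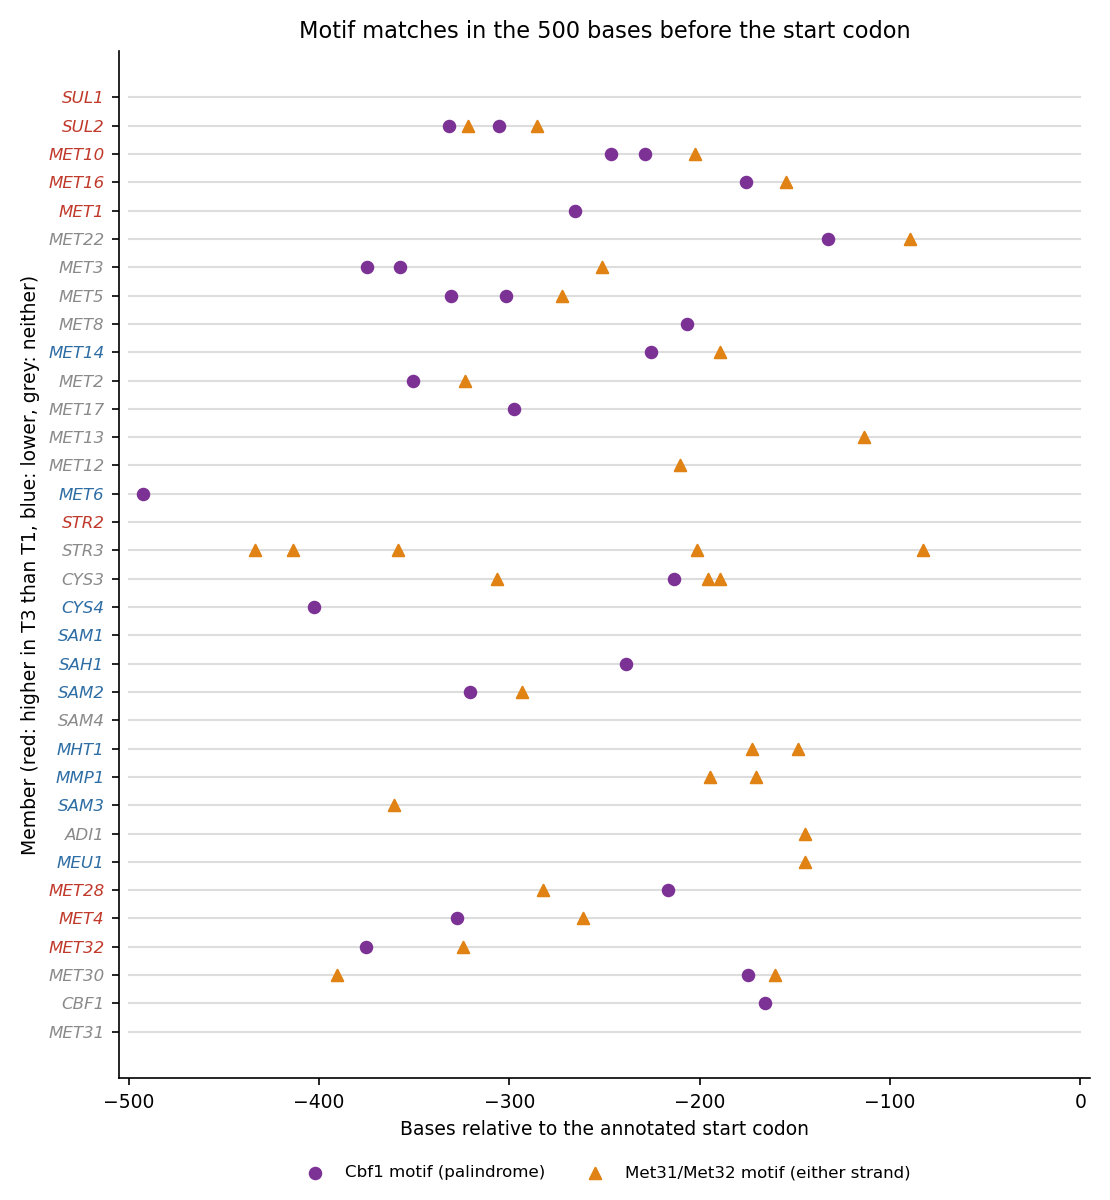
Positions of hexamer matches (x axis, bases relative to the annotated start codon, 500 bases shown) upstream of each of the 34 members (y axis, grouped by role), with circles for the Cbf1 core and triangles for the Met31 and Met32 hexamer on either strand. Gene names are red where the member was higher in T3 than in T1, blue where it was lower and grey where neither was called, and all these colours occur among the 21 members with a circle.

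T3 against T1, the outermost groups, was the main comparison, tested with limma on log2(TPM + 1) and Benjamini-Hochberg adjustment over all 6046 genes. Fold changes are on this scale too. All 3 genes of SAM synthesis and its cycle fell (SAM1, SAM2 and SAH1), as did MET6, 1 of 3 genes of methionine synthase and its methyl folate supply, while MET28 and STR2 rose. In all, 9 of 34 members rose (26.5%, where 31.0% of all tested genes rose) and 10 fell (29.4%, where 16.9% of all fell), and 15 did not pass an adjusted p of 0.05. Members that rose or fell by at least 1.5-fold numbered 2 and 4, where 14.5% and 4.93% of all tested genes did. The median log2 change was 0.03 over the members and 0.09 over all tested genes, with members from -1.22 to 1.34. The split of 9 higher and 10 lower became 7 and 12 with median-of-ratios scaling and 6 and 14 with quantile scaling. It was 8 and 14 once a trend with gene length was taken out. All tested genes shifted too, from 1877 higher and 1024 lower to 1591 and 1563 of 6046 with median-of-ratios scaling. They stood at 1419 and 1722 of 6046 with quantile scaling, and at 1713 and 1735 of 5841 without the length trend. With quantile scaling the median of all genes was -0.04 on the log2 scale, against 0.09 as deposited. Of the 19 calls, 12 held in every one of the 15 alternative settings.

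**Figure D2:**
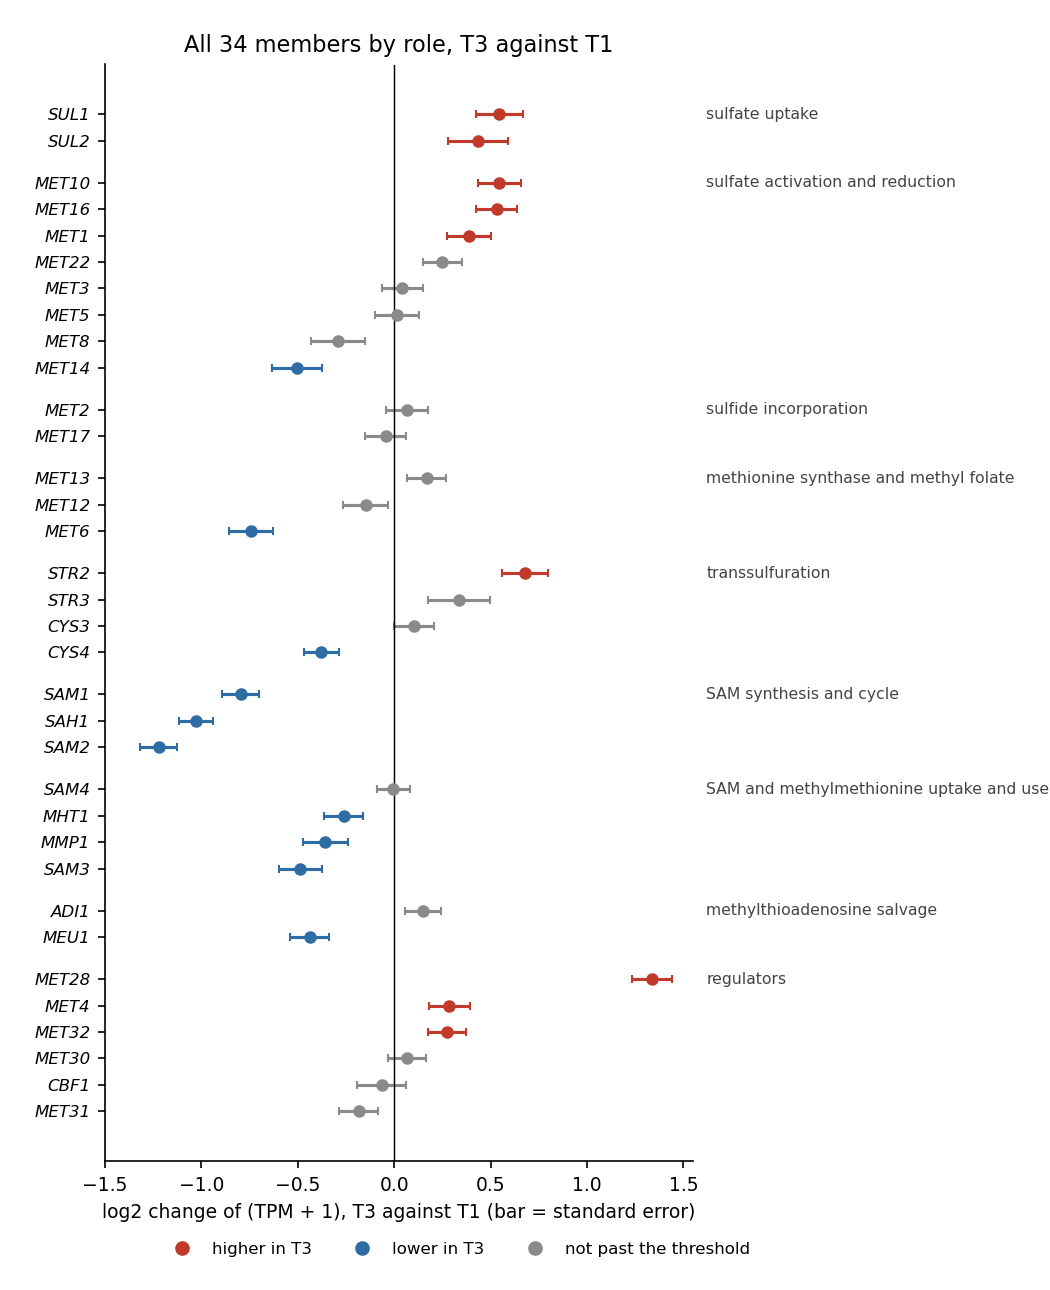
Log2 change of (TPM + 1) in T3 against T1 (x axis) for each of the 34 members (y axis, grouped by role), where points are limma estimates from 2 libraries a group, bars are standard errors and colours mark an adjusted p below 0.05. The SAM cycle genes lie at -0.80 to -1.22 and MET28 at 1.34, while every other member lies between -0.74 and 0.68.

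SAM2, which encodes one of a pair of SAM synthetases (YDR502C, chromosome IV, 1453310 to 1454464, a single coding exon), had 636.5 and 754.7 TPM in the T1 libraries, 466.4 and 508.9 TPM in T2, and 299 and 294.1 TPM in T3. The groups did not overlap, each lower than the one before. Its log2 change in T3 against T1 was -1.22 (SE 0.10, limma adjusted p = 2.53e-07), which ranked 37 among the falls of 6046 tested genes. SAH1, the gene of S-adenosylhomocysteine hydrolase (YER043C, chromosome V, 235770 to 237119), was the most abundant member. It had 1173 and 1241 TPM in T1, 851 and 946.5 TPM in T2, and 632.9 and 553.1 TPM in T3, again without overlap. Its log2 change in T3 against T1 was -1.03 (SE 0.09, limma adjusted p = 6.94e-07), rank 59 among the falls.

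SAM1, the other SAM synthetase gene (YLR180W, chromosome XII, 515262 to 516410), had 486.2 and 536.1 TPM in T1, 361.1 and 401.3 TPM in T2, and 309.5 and 278.2 TPM in T3. Its log2 change in T3 against T1 was -0.80 (SE 0.09, limma adjusted p = 1.26e-05). MET6, the methionine synthase gene that makes methionine from homocysteine (YER091C, chromosome V, 339864 to 342167), had 217.8 and 281.3 TPM in T1, 178.4 and 191.3 TPM in T2, and 150 and 144.9 TPM in T3. Its log2 change in T3 against T1 was -0.74 (SE 0.11, limma adjusted p = 0.000115). For these 2 genes too, every T3 library lay below every T1 library, and the calls of all 4 genes held in all 15 alternative settings. The upstream window of SAM1 held neither hexamer, and that of SAM2 held both, as shown in the stretch above.

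Summed over SAM1, SAM2 and SAH1, the whole list of SAM synthesis and its cycle, abundance was 1241 and 1125 TPM in the T3 libraries, against 2296 and 2532 TPM in the T1 libraries. These 3 genes made up 32.2% of the members' summed TPM in T3, against 48.0% in T1. The sum follows from the falls of its genes and is given as a description. All 34 together summed to a mean of 3679 TPM in T3, against 5024 TPM in T1. MET6, SAM1, SAM2 and SAH1, picked by their falls, summed to a mean of 1331 TPM in T3, against 2663 TPM in T1. The other 30 members summed to 2348 TPM in T3, against 2361 TPM in T1. That near-equal sum holds rises and falls of single members, given below, so it does not show that they were unchanged.

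**Figure D3:**
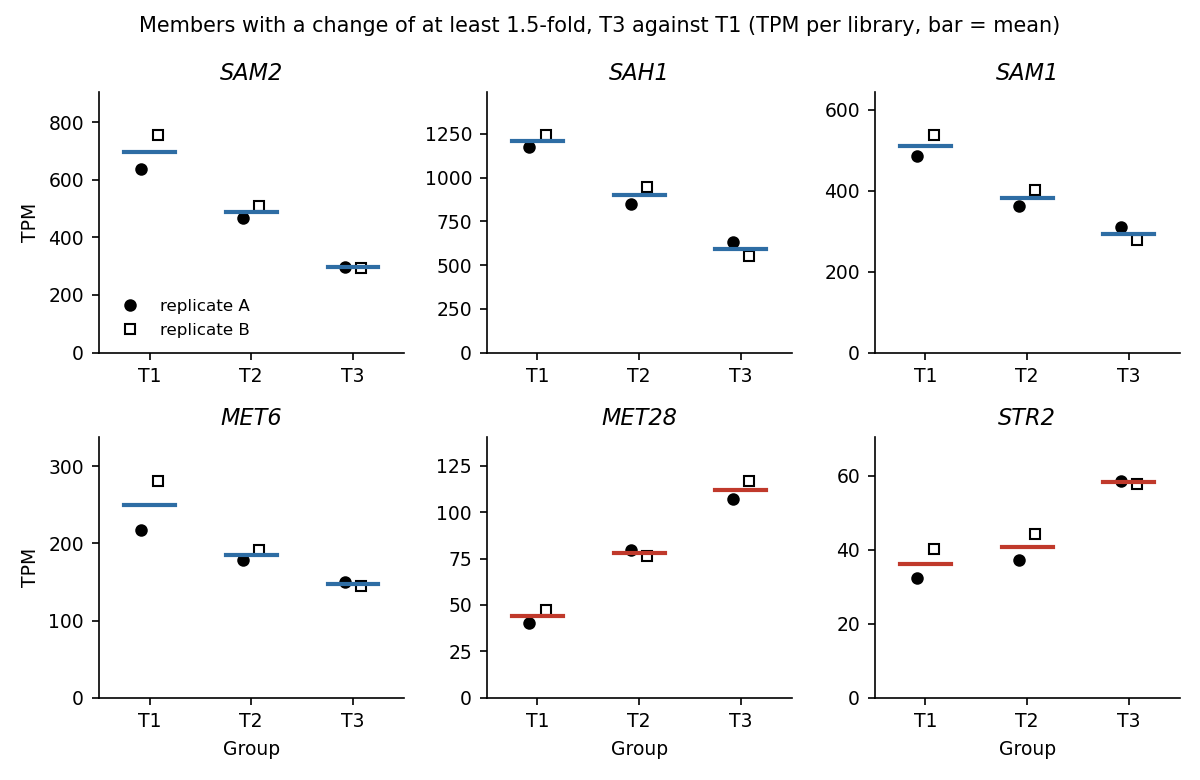
TPM (y axis, from 0) in each library of T1, T2 and T3 (x axis) for the 6 members that passed the test with at least a 1.5-fold change in T3 against T1, with filled circles for replicate A, open squares for replicate B and bars for the group mean. SAM2, SAH1, SAM1 and MET6 step down over the groups, MET28 steps up, and STR2 is highest in T3.

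Of the 6 regulators, MET28, MET4 and MET32 rose (50%, where 31.0% of all tested genes rose), and MET28 changed most. MET28 encodes a bZIP protein of the Met4 complex (YIR017C, chromosome IX, 383556 to 384119) and had 40.4 and 47.3 TPM in T1, 79.4 and 76.3 TPM in T2, and 107.2 and 116.9 TPM in T3. It averaged 112.1 ± 6.81 TPM in T3 and 43.8 ± 4.90 TPM in T1 (SD, n = 2 each), a 2.53-fold rise (log2 change 1.34, SE 0.10, limma adjusted p = 2.58e-07). All groups were separate from each other, and the call held in all 15 alternative settings.

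MET4, the activator itself (YNL103W), had 48.6 and 55.7 TPM in T1, 54.9 and 63.2 TPM in T2, and 64.3 and 63 TPM in T3 (T3 against T1: log2 change 0.29, SE 0.11, limma adjusted p = 0.0405). MET32, a zinc-finger gene (YDR253C), had 29.5 and 29.3 TPM in T1, 35.2 and 35.1 TPM in T2, and 34.7 and 36.8 TPM in T3 (log2 change 0.27, SE 0.10, limma adjusted p = 0.0317). Both rose past the threshold, by less than 1.3-fold, and neither call was firm. Leaving out T1 replicate A ended the MET4 call (adjusted p = 0.268), as did leaving out T3 replicate A (0.147) or T3 replicate B (0.104). The MET32 call was lost without any one of the T1 or T3 libraries, with adjusted p from 0.0813 to 0.19, and neither gene passed with median-of-ratios scaling (0.0613 for MET4 and 0.085 for MET32).

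The other 3 regulators did not pass the test in any pair of groups. MET31, the second zinc-finger gene (YPL038W), had 29.7 and 30 TPM in T3, against 32.1 and 36.1 TPM in T1 (log2 change -0.18, SE 0.10, limma adjusted p = 0.151). It passed as lower in T3 with median-of-ratios scaling, with quantile scaling and once the length trend was taken out, with an adjusted p as low as 0.00933. CBF1 (YJR060W) had 68.3 and 55.6 TPM in T3, against 59.4 and 70.1 TPM in T1 (log2 change -0.06, SE 0.13, limma adjusted p = 0.702), and MET30 (YIL046W) had 43.9 and 41.2 TPM in T3, against 39.3 and 41.8 TPM in T1 (log2 change 0.07, SE 0.10, limma adjusted p = 0.604). Libraries of T3 and T1 overlapped for CBF1 and MET30. These are transcript levels, and the control of Met4 by ubiquitination is not measured by them.

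Both sulfate permease genes rose. SUL1, a sulfate permease gene at low abundance, had 9.35 and 9.28 TPM in T1, 10.6 and 11 TPM in T2, and 13.6 and 14.5 TPM in T3 (T3 against T1: 1.46-fold, limma adjusted p = 0.00221). SUL2, the paralogous permease gene, had 4.95 and 4.79 TPM in T1, 5.17 and 5.27 TPM in T2, and 7.18 and 6.71 TPM in T3 (1.35-fold, limma adjusted p = 0.0339). Its groups did not overlap, but the SUL2 call was lost without any one of the T1 or T3 libraries (adjusted p from 0.079 to 0.161) and with quantile scaling (0.14).

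Of the 8 genes of sulfate activation, reduction and siroheme synthesis, 3 rose (37.5%), 1 fell (12.5%) and 4 did not pass, shares near the 31.0% and 16.9% of all tested genes. MET10, which encodes the alpha subunit of sulfite reductase, had 38.3 and 35.7 TPM in T3, against 23.3 and 26.9 TPM in T1 (1.46-fold, limma adjusted p = 0.00114). MET16, the PAPS reductase gene, had 21.5 and 22.1 TPM in T3, against 15.4 and 14.2 TPM in T1 (1.45-fold, limma adjusted p = 0.00119). MET1, which acts in the synthesis of siroheme, the cofactor of sulfite reductase, had 24.6 and 21.8 TPM in T3, against 16.6 and 18.3 TPM in T1 (1.31-fold, limma adjusted p = 0.0137). Leaving out T1 replicate A (adjusted p = 0.0631) or T3 replicate A (0.132) ended the MET1 call, while MET10 and MET16 held in all 15 alternative settings.

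MET14, the gene of adenylyl sulfate kinase, moved the other way. It had 62.3 and 49.9 TPM in T1, 58.9 and 47.4 TPM in T2, and 40.5 and 37.5 TPM in T3 (T3 against T1: log2 change -0.50, SE 0.13, limma adjusted p = 0.00521). T2 overlapped T1, and both T3 libraries lay below all the others. Within this branch the kinase gene fell while the reductase genes MET16 and MET10 rose, and each of the 3 carries both hexamers upstream, as in the stretches above.

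The remaining genes of this branch did not pass. MET3, the ATP sulfurylase gene that starts the branch, lay between 26.3 and 31.1 TPM over all libraries. MET5, the beta subunit of sulfite reductase, lay between 21.5 and 24.6 TPM, beside the rise of its partner subunit MET10. MET22, whose product removes the phosphate of the by-product PAP, had 89.6 and 89.2 TPM in T3, against 73 and 77.1 TPM in T1 (limma adjusted p = 0.054), and passed as higher in 3 of 15 alternative settings. MET8, another siroheme gene, had 18.7 and 14 TPM in T3, against 19.6 and 20.5 TPM in T1 (limma adjusted p = 0.0999), and passed as lower in 4 of 15 alternative settings (adjusted p as low as 0.0175).

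Neither gene of sulfide incorporation passed in any pair of groups. MET17, the O-acetylhomoserine sulfhydrylase gene, which overlaps the neighbouring entry YLR302C on the opposite strand by 12 bases, had 259.9 and 319.2 TPM in T1, 324.2 and 346.7 TPM in T2, and 298.7 and 261 TPM in T3. MET2, the homoserine O-acetyltransferase gene, had 20 and 22.1 TPM in T1, 18.9 and 18.2 TPM in T2, and 23.2 and 21 TPM in T3. MET17 was highest and MET2 lowest in T2. MET17 passed as lower in T3 against T2 in 5 of 15 alternative settings (adjusted p as low as 0.0128). The genes of methylenetetrahydrofolate reductase, which supplies the methyl group for methionine synthase, did not pass either: MET12 lay between 40.8 and 52.1 TPM and MET13 between 40.7 and 48.8 TPM. MET12 passed as lower in T3 against T1 with quantile scaling and once the length trend was taken out (adjusted p as low as 0.033).

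Of the 4 transsulfuration genes, 1 rose, 1 fell and 2 did not pass (25% each way, where 31.0% of all tested genes rose and 16.9% fell). STR2, the cystathionine gamma-synthase gene of the arm that leads from cysteine to homocysteine, had 32.2 and 40.2 TPM in T1, 37.1 and 44.3 TPM in T2, and 58.6 and 57.8 TPM in T3. It averaged 58.2 ± 0.552 TPM in T3 and 36.2 ± 5.66 TPM in T1 (SD, n = 2 each), a 1.60-fold rise (log2 change 0.68, SE 0.12, limma adjusted p = 0.000438). CYS4, the cystathionine beta-synthase gene of the opposite arm, had 319.2 and 311.1 TPM in T3, against 387.8 and 432.8 TPM in T1 (log2 change -0.38, SE 0.09, limma adjusted p = 0.00403). Both calls held in all 15 alternative settings.

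STR3, the cystathionine beta-lyase gene that follows STR2, had 16.4 and 15.7 TPM in T3, against 10.1 and 15.5 TPM in T1, and did not pass (limma adjusted p = 0.0977). The T1 replicates lay apart. The log2 change of STR3 in T3 against T1 was 0.34 with all libraries, 0.62 without T1 replicate B and 0.05 without T1 replicate A. CYS3, the cystathionine gamma-lyase gene that follows CYS4, had 382 and 316.8 TPM in T3, against 305.8 and 343.8 TPM in T1, with overlapping libraries (limma adjusted p = 0.45).

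Of the 4 genes for uptake and use of external SAM and S-methylmethionine, 3 fell (75%, where 16.9% of all tested genes fell), and for 2 of these the call rested on single libraries, as given below. SAM3, the SAM permease gene, had 134.9 and 168.4 TPM in T1, 108.2 and 118.2 TPM in T2, and 110.8 and 103.6 TPM in T3 (T3 against T1: log2 change -0.49, SE 0.11, limma adjusted p = 0.00273). MMP1, the S-methylmethionine permease gene, had 31.9 and 40.2 TPM in T1, 27.2 and 27.1 TPM in T2, and 28 and 27.5 TPM in T3 (log2 change -0.36, limma adjusted p = 0.0206). MHT1, a homocysteine methyltransferase gene that uses S-methylmethionine, had 30.1 and 30.4 TPM in T1, 32.2 and 34.9 TPM in T2, and 24.9 and 25.2 TPM in T3 (log2 change -0.26, limma adjusted p = 0.0427). SAM4, its counterpart for SAM, had 228.3 and 226.5 TPM in T3, against 224.3 and 231.7 TPM in T1 (limma adjusted p = 0.975), and passed as lower with quantile scaling and once the length trend was taken out (adjusted p as low as 0.0256). Leaving out T1 replicate B (adjusted p = 0.272), T3 replicate A (0.0643) or T3 replicate B (0.0804) ended the MMP1 call, and the MHT1 call was lost without any one of the T1 or T3 libraries (0.113 to 0.166). MMP1 and MHT1 share their upstream region, and in T2 they stood apart, MMP1 below and MHT1 above all T1 libraries.

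In the salvage of methylthioadenosine, a by-product of SAM, MEU1 (the phosphorylase gene) had 58.3 and 54.8 TPM in T3, against 74 and 80 TPM in T1 (log2 change -0.44, SE 0.10, limma adjusted p = 0.00247). ADI1 (the acireductone dioxygenase gene) had 124.5 and 129.3 TPM in T3, against 108.5 and 120.3 TPM in T1, and did not pass (limma adjusted p = 0.207). MEU1 held in all 15 alternative settings.

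**Figure D4:**
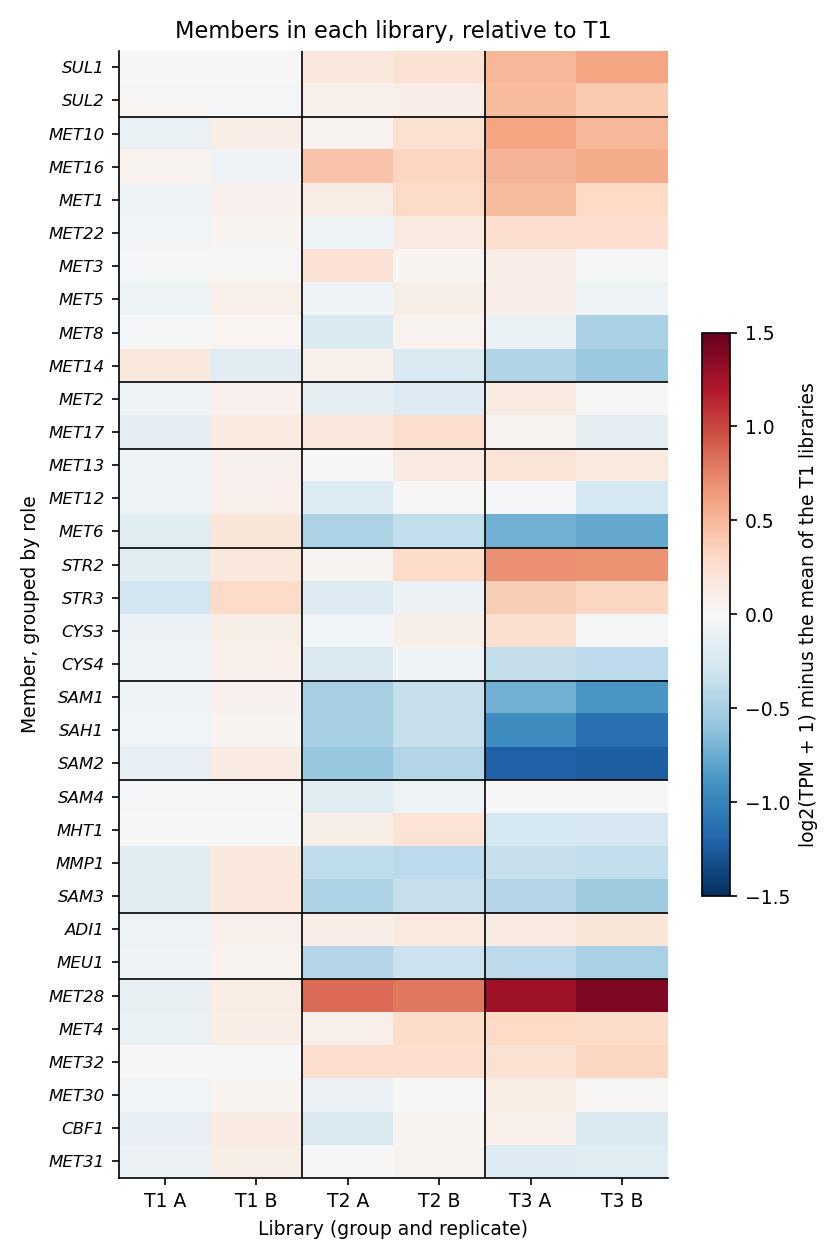
Log2(TPM + 1) of each member (y axis, grouped by role) in each library (x axis), shown as the difference from the mean of the T1 libraries, with red above and blue below it. The columns of T3 are darkest for SAM2, SAH1 and SAM1 (blue) and MET28 (red), and the T2 columns of these genes are intermediate.

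The comparisons by step asked where along the groups the changes fell. Both steps share the T2 libraries, so their calls are given side by side. In T2 against T1, 2 members rose (5.88%, where 11.9% of all tested genes rose) and 7 fell (20.6%, where 6.10% of all fell). The rises were MET28 (log2 change 0.82, limma adjusted p = 0.000154) and MET16 (0.38, adjusted p = 0.0278). The falls were SAM2 (-0.51), SAH1 (-0.43), SAM1 (-0.42), MET6 (-0.42), SAM3 (-0.41), MMP1 (-0.39) and MEU1 (-0.38), with limma adjusted p from 0.00244 for SAM2 to 0.0332 for MMP1. These counts were less firm than those of the outermost groups: of 9 calls 4 were made without T1 replicate B, where MET17 passed in addition (adjusted p = 0.0268), and 2 without T2 replicate A. SAM2 and MET28 were the 2 calls without T2 replicate A, and 1 call, MET28, was made with no filter on low values.

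In T3 against T2, 4 members rose (11.8%, where 15.8% of all rose) and 5 fell (14.7%, where 6.09% of all fell). MET28 rose again (log2 change 0.52, limma adjusted p = 0.00326), with STR2 (0.51, adjusted p = 0.00878), MET10 (0.41, adjusted p = 0.0182) and STR3 (0.48, adjusted p = 0.0449). SAM2 (-0.71), SAH1 (-0.60), MET14 (-0.43), MHT1 (-0.40) and SAM1 (-0.37) fell, with limma adjusted p from 0.000217 for SAM2 to 0.0283 for MET14. Of 9 calls, 5 were made without T2 replicate A and 5 without T3 replicate A, and the STR3 call was lost in 9 of 15 alternative settings. Leaving out T2 replicate A ended the calls of STR2 (adjusted p = 0.0891), MET10 (0.14) and MET14 (0.242), and leaving out T2 replicate B those of SAM1 (0.101) and MHT1 (0.0703). Leaving out T3 replicate A ended the calls of MET10 (0.135), MHT1 (0.0753) and MET14 (0.0555), and leaving out T3 replicate B those of SAM1 (0.0936) and MET14 (0.117).

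SAM1, SAM2 and SAH1 passed as lower in each step and MET28 as higher in each step, where 1.59% and 6.33% of all tested genes did so. SAM3, MMP1, MEU1 and MET6 passed as lower in the first step, with T3 against T2 at adjusted p of 0.668, 0.881, 0.713 and 0.0553. MET6 passed as lower in T3 against T2 in 6 of 15 alternative settings, the median of ratios among them (0.0256). Passing in one step and not in another is not a difference between steps, so that difference was tested too. In limma, 0 of 34 members passed it, 3 had an unadjusted p below 0.05, and 1.08% of all tested genes passed. Without T1 replicate A, STR3 passed (adjusted p = 0.00843), and without T1 replicate B, MET17 did (0.0289). Any difference among the 3 groups was called in 16 members, where 43.6% of all tested genes were.

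By group means, 14 members (41.2%) rose in order over T1, T2 and T3, as did 39.2% of all tested genes, and 10 (29.4%) fell in order, as did 24.7% of all. T2 was highest in 4 members (MET3, MET17, MHT1 and MET31), 11.8% of them, as in 13.9% of all tested genes. It was lowest in 6 (MET2, STR3, MMP1, SAM4, CBF1 and MET30), 17.6% of them, as in 22.2% of all. T3 libraries lay wholly above T1 libraries in 13 members and wholly below in 12, where 45.7% and 29.3% of all tested genes did so.

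Paralogous pairs within the route were compared inside each library, where TPM allow levels of different genes to be set beside each other. SAM1 and SAM2 share 82.8% of aligned coding bases, with a longest identical run of 59 bases, shorter than the 150-base reads, but how reads that match both were counted is not given in the sources used here. SAM1 divided by SAM2 came to 0.764 and 0.71 in T1, 0.774 and 0.789 in T2 and 1.04 and 0.946 in T3 libraries. SAM2 was the more abundant of the pair in T1 and T2, and the levels were close to each other in T3. STR2 and its uncharacterised paralog YML082W share 60.4% of coding bases. STR2 divided by this paralog came to 1.22 and 1.39 in T1, 1.57 and 1.51 in T2 and 2.41 and 2.78 in T3 libraries.

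Among the other pairs, SAM4 to MHT1 stood at 7.45 and 7.63 in T1, 6.23 and 6.18 in T2 and 9.16 and 9 in T3 libraries. MET31 to MET32 stood at 1.09 and 1.23 in T1, 0.971 and 0.999 in T2, and 0.855 and 0.815 in T3, so that MET32 was the more abundant of these zinc-finger genes in T3 and MET31 in T1. MET12 to MET13 stood at 0.99 and 0.867 in T3, against 1.15 and 1.17 in T1, SUL1 to SUL2 at 1.89 and 2.16 in T3, against 1.89 and 1.94 in T1, and SAM3 to MMP1 at 3.96 and 3.77 in T3, against 4.23 and 4.19 in T1. With 2 libraries against 2, an exact two-sided permutation test of such a ratio cannot give a p below 0.333, so none was run.

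Hexamers and direction were set side by side as counts. Of the 21 members with CACGTG upstream, 7 rose and 5 fell in T3 against T1, and of the 13 without it, 2 rose and 5 fell. Over the whole table, 361 tested genes had CACGTG upstream, of which 33% rose and 18% fell. The rises among the members were near that share, and the falls, 5 of 21, somewhat above it. Tested genes without CACGTG were not counted apart. They are most of the 5788 tested genes with an upstream window, and of those 5788, 31.4% rose and 16.8% fell. A link between either hexamer and direction was not tested. Of the 14 with both hexamers, 6 rose, 2 fell and 6 did not pass, with log2 changes from -1.22 for SAM2 to 1.34 for MET28. In all, 66 tested genes had both hexamers upstream, of which 34.8% rose and 12.1% fell, where 31.4% rose and 16.8% fell among all tested genes with an upstream window.

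Another 45 genes that feed, drain or regulate the route were listed by function, and 17 rose and 5 fell in T3 against T1, where 31.0% of all tested genes rose and 16.9% fell. Their median log2 change was 0.10. That split was 11 and 10 with median-of-ratios scaling, where 1591 of 6046 tested genes rose and 1563 fell. With quantile scaling it was 10 and 12, where 1419 of 6046 rose and 1722 fell. Once the length trend was taken out it was 12 and 10, where 1713 of 5841 rose and 1735 fell. Without T3 replicate A, fewer of these genes passed, and fewer of all tested genes passed too. Among 10 genes of methionine and cysteine uptake and other sulfur sources, 3 rose and 2 fell. SSU1, the sulfite efflux pump gene, had 36 and 41.1 TPM in T3, against 19.4 and 22.4 TPM in T1 (1.81-fold, limma adjusted p = 4.33e-05), and OPT1, an oligopeptide and glutathione transporter gene, had 16.8 and 16 TPM in T3, against 25.4 and 34.6 TPM in T1 (log2 change -0.82, limma adjusted p = 0.00023).

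Users of SAM included a further pair of falls. Of 6 genes that use SAM or dispose of its products, 2 fell and 4 did not pass, where 16.9% of all tested genes fell. The larger fall was that of OPI3, a phospholipid methyltransferase gene, with 419.3 and 444.8 TPM in T3, against 885.2 and 921.9 TPM in T1 (log2 change -1.06, SE 0.08, limma adjusted p = 1.83e-07). The other was CHO2, which carries out the first methylation of phosphatidylethanolamine ahead of Opi3, at a log2 change of -0.93. The polyamine genes SPE2, SPE3 and SPE4 and the adenosine kinase gene ADO1 did not pass.

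In the other steps of methylthioadenosine salvage, 5 of 7 genes rose and 1 fell, where 31.0% of all tested genes rose and 16.9% fell. ARO9, an aromatic aminotransferase gene, had 34.2 and 30.5 TPM in T3, against 5.99 and 8.88 TPM in T1 (4.0-fold, limma adjusted p = 3.15e-07), and MDE1, a dehydratase gene of the route between MEU1 and ADI1, had 70.4 and 72.3 TPM in T3, against 107.6 and 109 TPM in T1 (log2 change -0.60, limma adjusted p = 0.000161). The risen genes include the transaminase genes ARO8, BAT1 and BAT2, which serve other amino acids as well, so the list's name covers part of what they do. Of the genes particular to this salvage, MDE1 fell as the member MEU1 did, UTR4 rose (1.27-fold, limma adjusted p = 0.016), and MRI1 and the member ADI1 did not pass.

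In the remaining lists the rises stand beside the 31.0% of all tested genes that rose. Of 9 glutathione genes 4 rose and 5 did not pass, with GTT1, a glutathione transferase gene, at 148.3 and 144.8 TPM in T3, against 84.3 and 75.4 TPM in T1 (1.83-fold, limma adjusted p = 6.26e-06). Of 3 thioredoxin genes, TRX2 rose 1.98-fold (limma adjusted p = 1.06e-06). Of 6 genes of homoserine and folate supply, HOM2, the aspartate semialdehyde dehydrogenase gene, passed as higher (1.2-fold, limma adjusted p = 0.0315), a call lost in 8 of 15 alternative settings. Of 4 genes of the ubiquitin ligase that carries Met30, 3 rose, with CDC34, the conjugating enzyme gene, at 1.52-fold (limma adjusted p = 0.00014). GCN4, the shared activator of amino acid synthesis genes, had 805.3 and 859.1 TPM in T3, against 607.2 and 579.1 TPM in T1 (1.4-fold, limma adjusted p = 0.000206).

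**Figure D5:**
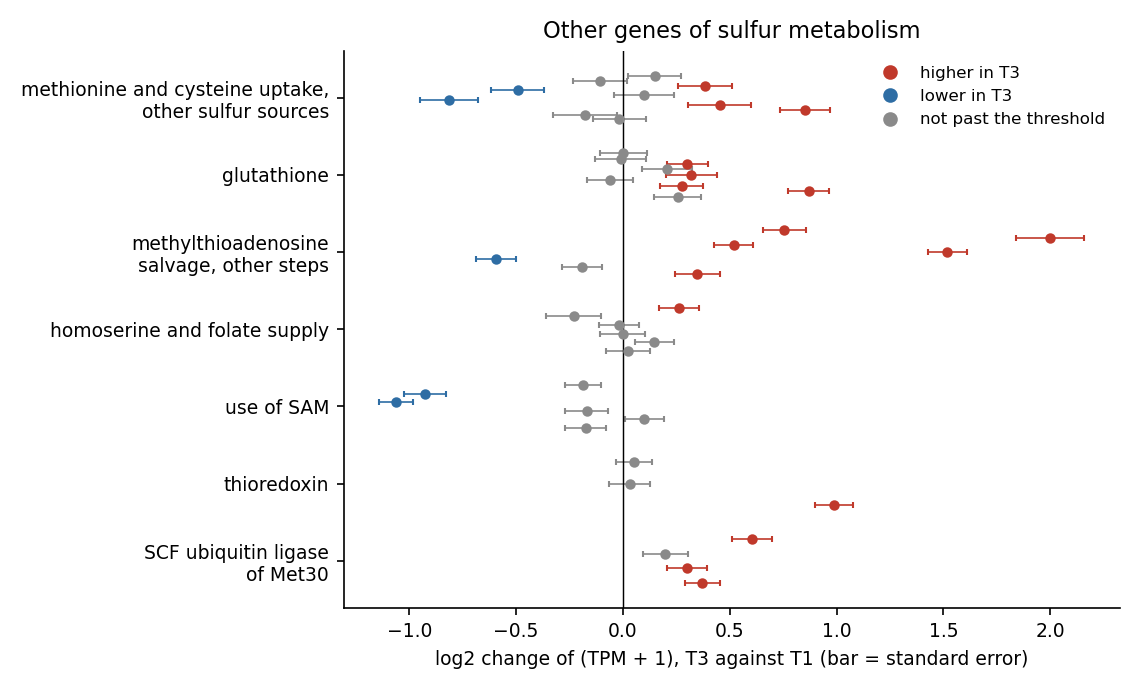
Log2 change of (TPM + 1) in T3 against T1 (x axis) for 45 further genes of sulfur metabolism in 7 functional lists (y axis), with limma standard errors as bars and colours for calls at an adjusted p below 0.05. The falls of OPI3 and CHO2 stand to the left in the list of SAM use, and ARO9 lies farthest to the right at 2.00.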

How the data were processed

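The authors deposited 1 table of TPM values, with each library adding up to 1000000, per the file name and values. STAR 2.5.2b, Subread 1.5.2, featureCounts and the R64 build are named per the submitters' processing notes; their settings, strandedness and handling of multiply matching reads are not given in the sources used here. An unnamed entry at 4.74 to 5.83 TPM was left out. All 6 libraries entered 1 fit of group means on log2(TPM + 1) in limma 3.58.1 (R 4.3.3; lmFit, contrasts.fit, eBayes with an abundance trend; 3 residual and 10.7 prior degrees of freedom) over the 6046 genes that averaged 1 TPM or more, two-sided, with Benjamini-Hochberg adjustment over all of them and a threshold of 0.05. The fit was tested on simulated data.

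Folds and log2 changes are on the log2(TPM + 1) scale, which understates changes of genes at a few TPM. Coordinates, coding lengths and upstream sequence come from the R64 RefSeq genome (6082 names matched), read with Biopython 1.88, pandas 2.3.3 and NumPy 2.4.6 in Python 3.11.15, with plots by matplotlib 3.10.9. Fragments were recovered by finding, for each library, the step that makes TPM times coding length whole: of single-exon genes at or under 500 fragments, 99.8 to 99.9% came within 0.1 of an integer. Counts of fragments cover counting error only. The members, lists and hexamers were chosen with earlier results of these data known. Full values were given for members that passed with at least 1.5-fold change in T3 against T1 and for the regulators MET4, MET28 and MET32. The regulators MET31, CBF1 and MET30 were given with their T1 and T3 libraries. The rest were given with per-library values or a range over all libraries. Of the 7 further lists, the largest rise and fall that passed were named. CHO2, SPE2, SPE3, SPE4, ADO1, ARO8, BAT1, BAT2, UTR4 and MRI1 were named after their values were seen. The 15 alternative settings were pseudocounts of 0.1 and 5, no filter, a minimum mean of 10 TPM, median-of-ratios and quantile scaling, no abundance trend, removal of a smooth trend with length, each library left out, and a replicate block. SUL2, under 10 TPM, has 14 of them.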

Additional observations from a re-analysis of the deposited data

How the results depend on the processing

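Counts of members called ran over the 15 settings as follows. For T3 against T1 (19 called) leaving out 1 library gave 14 to 20, for T2 against T1 (9) 2 to 10, for T3 against T2 (9) 5 to 12, for the difference between steps (0) 0 to 1, and for any difference among groups (16) 11 to 17. Counts over all tested genes shifted as well when 1 library was left out. With no filter on low values, 1 member was called in T2 against T1 and 5 in T3 against T2. All genes lost calls in that fit too. In T2 against T1, 411 of 6400 rose and 133 fell, from 722 and 369 of 6046. In T3 against T2, 468 of 6400 rose and 159 fell, from 957 and 368 of 6046. The fit without a filter holds 103 genes listed at 0 in every library, and the cause was not tested. The other settings kept each count within 1.5 times its first value. With a replicate block, 18 members were called in T3 against T1 (the MHT1 call was lost, limma adjusted p = 0.0546), 9 in each step and 0 between steps. With that block, 1824 of 6046 tested genes rose and 995 fell in T3 against T1, from 1877 and 1024. Whether the letters pair the libraries is not stated. Across genes the A minus B differences correlated at 0.13 between T1 and T2, -0.06 between T1 and T3, and -0.15 between T2 and T3. With 1 difference a group, these values cannot settle it.

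In T3 against T1, 8 uncalled members turned sign in at least 1 setting. MET3, MET5, MET2, MET17, CYS3 and SAM4 stayed between -0.27 and 0.24 on the log2 scale, CBF1 ran from -0.21 to 0.082 when 1 library was left out, above 0 without T1 replicate B or T3 replicate B, and MET30 stood at -0.027 with median-of-ratios and -0.035 with quantile scaling. Every called change kept its direction in all settings run. In T3 against T1, 12 of 19 calls (SUL1, MET16, MET10, MET6, STR2, CYS4, SAM1, SAM2, SAH1, SAM3, MEU1 and MET28) were kept in every setting, in T3 against T2 3 of 9, and in T2 against T1 1 of 9. MET14 in T3 against T1 was lost with no filter alone (adjusted p = 0.0654). Every member held at least 316 fragments in each library, and how far depth limits its small changes was not tested.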

Other observations

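Within each group, replicates differed in a common direction for most members and for most tested genes, and the direction in T3 was opposite to that in T1 and T2. Replicate B lay above replicate A in 29 of 34 members in T1 (85.3%, where 67.3% of all tested genes did) and in 27 of 34 in T2 (79.4%, where 76.6% did). In T3 it lay above in 7 of 34 members (20.6%, where 35.4% did). The median log2 difference of B minus A over the members was 0.14 in T1 and 0.12 in T2, against 0.07 and 0.11 over all tested genes, and in T3 it was -0.07, against -0.05. The part of these differences in the calls above was not tested beyond leaving out each library.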
